A study of Arabidopsis thaliana with 63 samples.

Results

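A set of 119 genes was all but silent in wild-type Arabidopsis thaliana seedlings and gave reads in seedlings of 1 or both H2A.W mutants. They were chosen from 26870 gene rows by the group means themselves: a mean normalized count under 1 in WT in both mutant tables and of at least 3 in h2a.w-1 or in h2a.w-2, with AT4G31970 and AT2G30766 left out. Because the levels in WT and in the mutants chose the genes, those levels are given as a description and carry no test. A normalized count is a read count divided by a size factor that puts libraries of unequal depth on 1 scale. RNA-seq was done on total, rRNA-depleted RNA of 10-day-old Col-0 seedlings grown in long days, with 3 libraries per genotype. WT carried no mutation. The triple mutant h2a.w-1 combined the insertion allele hta6-1 with hta7 and hta12, and h2a.w-2 combined the frameshift allele hta6-2, made with CRISPR-Cas9, with the same hta7 and hta12 insertions. In the study's account, hta6-1 also carries a large translocation from the right arm of chromosome 1 to chromosome 5, and h2a.w-1 plants develop abnormally, so that loss of H2A.W and the rearrangement cannot be told apart in h2a.w-1. By the study's account, the plants of each replicate were taken at random among seedlings of the same genotype, so the spread between libraries is that between pools of seedlings; the labels name no separate cultures.

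H2A.W is a plant histone H2A variant that is found in heterochromatin, the compact and transposon-rich DNA around the centromeres, and HTA6, HTA7 and HTA12 encode its isoforms. Heterochromatin is silenced by DNA methylation and by methylation of histone H3, and a few genes outside it are silenced in the same way, among them FWA in vegetative tissue and SDC. Other genes are silent in seedlings because their programme belongs to another stage: seed storage proteins, oleosins and late embryogenesis abundant proteins are made in maturing embryos under ABI3 and related transcription factors, and are shut off after germination.

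The deposited tables hold group means, from which whole reads per library were recovered for 29832 of 29961 features. The columns carry no replicate numbers, so within a genotype library A is the one with the largest size factor, B the next and C the smallest, and the recovered reads came to between 5589647 and 9051238 per library. In a group mean 1 read was worth 0.273 to 0.470, so most levels below rest on few reads: at the limit, AT1G06883 had 0, 2 and 6 reads in h2a.w-1 for a mean of 3.02. In h2a.w-1, the set leaned on library C. It held the highest normalized count for 63 of the 94 genes that reached 3 there, and 64 of the 94 still reached 3 without it, against 88 without A and 86 without B. In h2a.w-2, the highest count was in A for 12, in B for 13 and in C for 15 of the 40 genes that reached 3. In h2a.w-1, 1 read was worth 0.393 in C and 0.295 in A, so low counts jump most in C. No share over all genes stands beside these counts. The disrupted genes were lower in the mutants. HTA6 had 949, 902 and 751 reads in WT, 65, 54 and 42 in h2a.w-1 and 312, 274 and 136 in h2a.w-2. HTA7 had 532 to 795 reads in WT, 82 to 96 in h2a.w-1 and 56 to 111 in h2a.w-2. HTA12 had 97, 113 and 86 reads in WT, 19 in each h2a.w-1 library, and 28, 107 and 17 in those labelled h2a.w-2, so that library B of h2a.w-2 was at the WT level and went against its label for this gene. Of the 40 genes that reached 3 in h2a.w-2, 33 still did so without library B, 37 without A and 32 without C.

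The genes fell into 79 that reached 3 in h2a.w-1 only, 25 that did so in h2a.w-2 only and 15 in both. Among the 4601 genes under 1 in WT in both tables, 95 (2.06%) reached 3 in h2a.w-1 and 41 (0.891%) in h2a.w-2, each count including 1 of the genes left out. "Only" is a matter of the limit for many: 45 of the 79 were under 1 in h2a.w-2, with 20 at 0, and 7 of the 25 were under 1 in h2a.w-1, with 2 at 0. The levels were low, with a median of 4.36 over the 94 genes in h2a.w-1 and 4.40 over the 40 in h2a.w-2, and 15 and 6 genes, respectively, reached a mean of 10. In h2a.w-1, 80 of the 94 had reads in all 3 libraries, 12 in 2 libraries and 2 in a single library. In h2a.w-2, 32 of the 40 had reads in all 3 libraries, 6 in 2 and 2 in a single one. All 3 mutant libraries lay above all 3 WT libraries for 69 of the 94 genes in h2a.w-1, where 16% of all genes did so, and for 28 of the 40 in h2a.w-2, where 8.51% did so; the rule used these contrasts, and nothing is read from the counts. In WT, 33 of the 119 genes had no read in any library, and no gene had more than 3 in a library. The whole rule was met by 51 of the 119 whichever of the 9 libraries was left out.

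**Figure D1:**
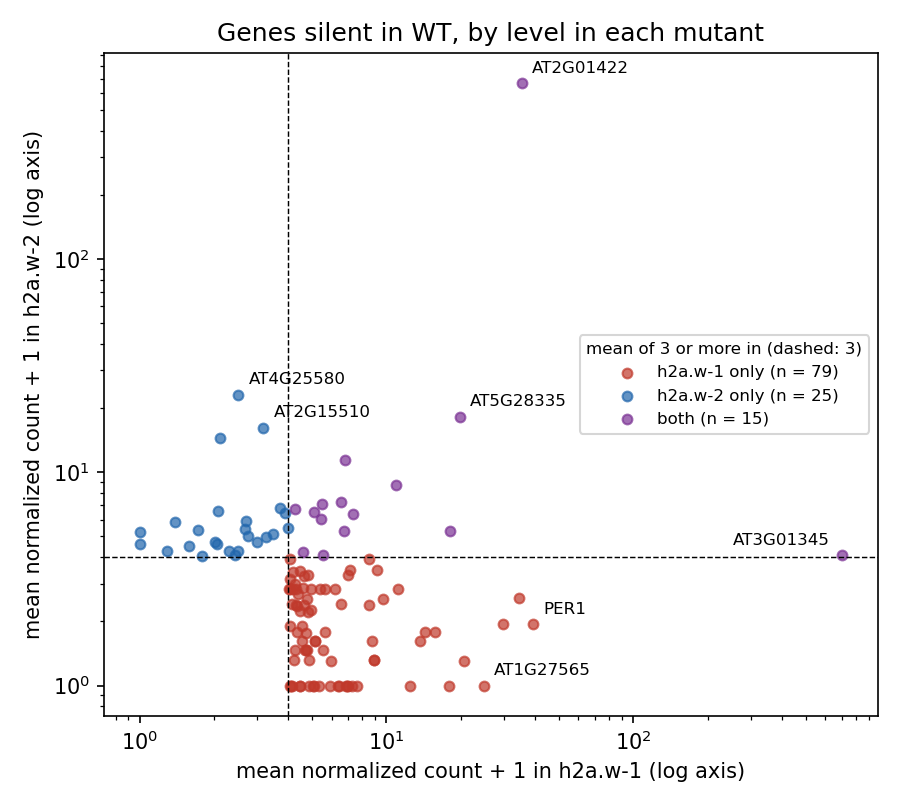
Each point is 1 of the 119 genes, with its mean normalized count + 1 in h2a.w-1 on the x axis and in h2a.w-2 on the y axis (log axes, values from the table of each mutant). Dashed lines mark the limit of 3 that sorts the genes into 79, 25 and 15. AT3G01345 at 702 in h2a.w-1 and AT2G01422 at 666 in h2a.w-2 lie far from the others.

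The same count run the other way gives a scale for these numbers. Within the table of h2a.w-1, 95 genes were under 1 in WT and at least 3 in the mutant, while 70 were under 1 in the mutant and at least 3 in WT. Within the table of h2a.w-2, the counts were 45 and 40. With the upper limit at 10, they were 16 against 4 in h2a.w-1 and 8 against 1 in h2a.w-2. The direction changed when some single libraries were left out. Without library C of h2a.w-1, the counts turned to 76 and 137, and to 10 and 15 with the upper limit at 10. Without library A of h2a.w-2 they turned to 71 and 92, and without its library C to 50 and 60, while with the upper limit at 10 they kept their direction at 8 against 5 and 7 against 3. Leaving out any other library turned no direction. A mean over fewer libraries falls under the limit more readily. At the limit of 3, leaving out any mutant library raised the count silent in that mutant, and leaving out any WT library raised the count silent in WT. The check therefore cannot say that a single library made the direction.

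A few genes stood far above the rest, and their upstream sequences are shown first, because each is a single gene with a large change beside neighbours whose ratios are given further on. The sequences run 5′ to 3′ from 250 bases before to 50 bases after the annotated start of the gene, from the RefSeq TAIR10.1 assembly. They are in lower case because neither motif searched for below, CATGCA or CACGTG, occurs in them.
AT3G01345 promoter, chr3:128888-129187, + strand: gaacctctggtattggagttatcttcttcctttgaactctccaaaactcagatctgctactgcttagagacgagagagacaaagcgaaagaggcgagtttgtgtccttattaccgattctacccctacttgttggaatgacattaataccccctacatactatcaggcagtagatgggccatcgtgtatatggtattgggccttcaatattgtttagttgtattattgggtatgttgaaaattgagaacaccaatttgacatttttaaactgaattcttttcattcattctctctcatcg
AT2G01422 promoter, chr2:183690-183989, + strand: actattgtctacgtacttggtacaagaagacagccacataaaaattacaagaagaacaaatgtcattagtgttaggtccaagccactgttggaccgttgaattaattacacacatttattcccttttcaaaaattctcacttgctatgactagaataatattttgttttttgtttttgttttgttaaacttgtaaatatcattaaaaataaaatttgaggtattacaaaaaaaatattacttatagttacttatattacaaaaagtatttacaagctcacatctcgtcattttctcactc

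AT3G01345, annotated as an expressed protein with a glycoside hydrolase domain (chr3:129138-130749, + strand), had the highest level in h2a.w-1. It gave 1, 2 and 0 reads in WT, 783, 613 and 685 in h2a.w-1 and 3, 4 and 2 in h2a.w-2. All h2a.w-1 libraries were thus far above the others, and the h2a.w-2 libraries lay just above WT. On 1 scale for all 9 libraries, the level was 0.846 ± 0.853 in WT, against 679 ± 99.8 in h2a.w-1 and 3.12 ± 0.604 in h2a.w-2 (normalized counts, mean ± SD, n = 3). Against the 3 WT reads, the ratio in h2a.w-1 was 716, with a counting interval of 245 to 3474 (exact, 95%), and in h2a.w-2 it was 3.34, with an interval of 0.834 to 19.2; such intervals cover counting error only. In h2a.w-2 the gene is counted among the 15 for a mean of 3.08, close to the limit. Its best match in the genome, AT5G28919, was transcribed in every genotype, with 62 to 145 reads in WT, 101 to 180 in h2a.w-1 and 162 to 177 in h2a.w-2.

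AT2G01422, a non-coding RNA gene near the left end of chromosome 2 (chr2:183940-184734, + strand), had the highest level in h2a.w-2 and the next after PER1 in h2a.w-1. It had no read in any WT library, 22, 32 and 44 reads in h2a.w-1 and 763, 680 and 483 in h2a.w-2. No library of 1 genotype overlapped with another genotype. Against a floor of 3 reads in each WT library, its mean was at least 11.4-fold higher in h2a.w-1 and at least 231-fold higher in h2a.w-2. On the scale of all 9 libraries, it stood at 33.2 ± 15.9 in h2a.w-1 and 674 ± 23.0 in h2a.w-2 (normalized counts, mean ± SD, n = 3), so that the h2a.w-2 libraries differed little from each other, library B included.

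MRD1 (AT1G53480, mto 1 responding down, chr1:19963047-19964712, - strand), a gene named for its low transcript level in a mutant that accumulates methionine, was named with the rule but lay outside its WT limit. It had 2, 1 and 1 reads in WT, a mean of 1.29 in the h2a.w-1 table and 1.23 in the h2a.w-2 table, and 463, 397 and 363 reads in h2a.w-1 and 490, 427 and 329 in h2a.w-2. Its level was 1.25 ± 0.405 in WT, against 396 ± 18.5 in h2a.w-1 and 439 ± 31.8 in h2a.w-2 (normalized counts on 1 scale, mean ± SD, n = 3). MRD1 was thus at a similar level in both mutants. Its only listed relative, AT5G03090, had 1 read in 1 h2a.w-2 library and none elsewhere. The antisense gene AT1G07887, a long non-coding RNA on the + strand within MRD1 (chr1:19963067-19964105), is 1 of the 15: it had no read in WT, 7, 6 and 1 in h2a.w-1 and 8, 4 and 3 in h2a.w-2. Most of its bases also belong to HEI10 (AT1G53490, chr1:19963267-19966952, + strand), a gene of meiotic crossover formation that is no member. HEI10 had 15, 18 and 20 reads in WT, 54, 49 and 46 in h2a.w-1 and 54, 67 and 31 in h2a.w-2. Its log2 fold change was 1.55 ± 0.27 (SE) in h2a.w-1, with an adjusted p of 0.00700, and 1.67 ± 0.30 (SE) in h2a.w-2, where the adjusted p of 0.155 did not pass (limma voom across all features, Benjamini-Hochberg). The library kit keeps the strand, but the strand setting of the counting is not given in the sources used here, so reads of MRD1, AT1G07887 and HEI10 over their shared bases cannot be told apart.

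**Figure D2:**
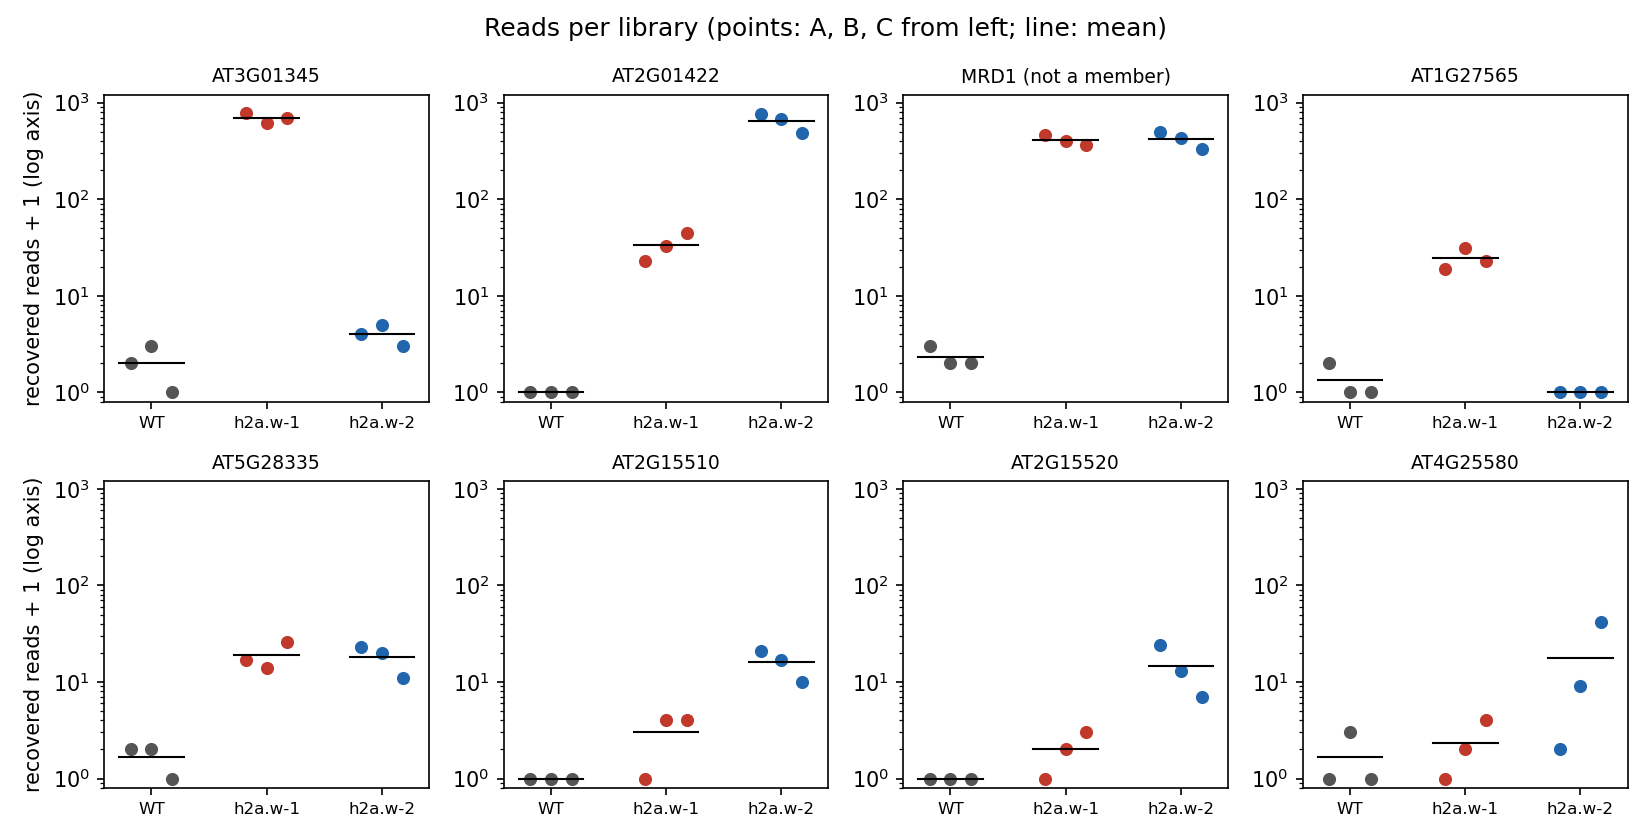
Recovered reads + 1 per library on a log axis, for 7 of the genes and for MRD1, which is no member. Points are libraries A, B and C from left to right within each genotype, and lines are means of reads + 1. AT3G01345 is high in the 3 h2a.w-1 libraries, AT2G01422 is highest in the 3 h2a.w-2 libraries, MRD1 is high in both mutants, and AT4G25580 rests mainly on library C of h2a.w-2.

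The other genes that reached 3 in both mutants had far fewer reads. The pseudogene-class locus AT5G28335 (chr5:10308601-10313586) had 1, 1 and 0 reads in WT, 16, 13 and 25 in h2a.w-1 and 22, 19 and 10 in h2a.w-2, so both mutants were above WT in every library and overlapped with each other. Its ratio to the 2 WT reads was 27.9 in h2a.w-1 (counting interval 7.35 to 236) and 28.4 in h2a.w-2 (7.47 to 241). AT5G45570, a Ulp1 protease family gene of the kind that cleaves SUMO, had 16, 5 and 9 reads in h2a.w-1 and 3, 16 and 4 in h2a.w-2, against a single read in WT. Its mutant libraries all lay above WT but differed by more than 2-fold within each mutant. AT5G05250, uncharacterized, had 9, 13 and 26 reads in h2a.w-1 and 3, 5 and 4 in h2a.w-2. AT1G77960, annotated as a repressor ROX1-like protein, had 5, 6 and 6 reads in h2a.w-1 and 4, 22 and 5 in h2a.w-2, where library B carried most of the level. AT5G52720, of a copper transport family, had 13, 4 and 1 reads in h2a.w-1 and 1, 4 and 10 in h2a.w-2, so that 1 library in each mutant carried it.

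Of the 15, 5 were non-coding RNA genes (33.3%) and 3 were in the pseudogene class (20%), beside 15.5% and 24.8% of the 4601 genes silent in WT. Non-coding RNA genes made 6.33% of the genes that reached 3 in h2a.w-1 only and 4% of those in h2a.w-2 only. These differences were not tested. Beside AT2G01422 and AT1G07887, the non-coding genes were AT3G05955 with 3, 5 and 5 reads in h2a.w-1 and 8, 6 and 4 in h2a.w-2, AT3G06515 with 4 in each h2a.w-1 library and 9, 3 and 4 in h2a.w-2, and AT2G06995 with 6, 2 and 3 and then 4, 2 and 3. Each of these 3 had at most 2 reads in a WT library. The pseudogene-class loci AT5G07215 and AT1G64240 had 6, 3 and 9 and 2, 6 and 5 reads in h2a.w-1, and 7, 0 and 7 and 1, 6 and 2 in h2a.w-2. AT5G27893, uncharacterized, had 4, 3 and 9 reads in h2a.w-1 and 3, 8 and 2 in h2a.w-2. It lies 117 kb from HTA7, whose insertion both mutants share. JAG (AT1G68480), a zinc finger factor needed for the growth of lateral organs, had 1, 2 and 0 reads in WT, 2, 1 and 6 in h2a.w-1 and 6, 8 and 3 in h2a.w-2, so that h2a.w-1 overlapped with WT and h2a.w-2 did not. Over the 9 libraries, on log2(normalized count + 1), the 5 genes most like MRD1 by Pearson's r were AT5G28335 at 0.974, AT2G13547 at 0.930, AT3G05955 at 0.925, AT1G07887 at 0.908 and AT3G06515 at 0.894. These are descriptions over libraries that share the contrast that chose the genes.

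The largest group by function was found in h2a.w-1 only. By their RefSeq annotation, 16 of the 119 genes belong to seeds or maturing embryos, a grouping made after their values were seen, and all 16 were in the class that reached 3 in h2a.w-1 only. None of the 16 reached 3 in h2a.w-2, where 12 were under 1 and 5 were at 0. Genes silent in WT outside the set were not sorted by function. No share over them thus stands beside this count or those of the groups below, and nothing about the set is read from the counts. In WT, 7 of the 16 had any read, with at most 2 in a library. The promoters of 3 of the 4 with the highest means in h2a.w-1 are shown with the capitals marking 2 motifs on either strand: CATGCA, the core of the RY element that ABI3 binds, read as TGCATG on the other strand, and the G-box CACGTG, which reads the same on both strands. Where CATGCA and TGCATG overlap, they make 1 longer run of capitals. The build and the bounds of the window are those given for AT3G01345.
PER1 promoter, chr1:17780179-17780478, + strand: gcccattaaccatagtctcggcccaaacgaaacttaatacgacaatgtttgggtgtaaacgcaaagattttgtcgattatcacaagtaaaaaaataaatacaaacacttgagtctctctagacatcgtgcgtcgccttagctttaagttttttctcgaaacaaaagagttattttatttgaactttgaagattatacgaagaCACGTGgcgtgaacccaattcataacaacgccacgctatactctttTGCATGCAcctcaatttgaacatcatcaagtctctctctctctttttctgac
TIP3;1 promoter, chr1:27521694-27521993, + strand: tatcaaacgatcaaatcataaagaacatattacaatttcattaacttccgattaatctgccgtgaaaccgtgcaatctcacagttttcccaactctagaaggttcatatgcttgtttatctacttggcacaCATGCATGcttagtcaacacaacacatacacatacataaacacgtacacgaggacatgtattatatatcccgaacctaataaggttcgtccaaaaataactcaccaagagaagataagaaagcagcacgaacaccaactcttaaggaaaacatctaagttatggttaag
CRU3 promoter, chr4:14087306-14087605, + strand: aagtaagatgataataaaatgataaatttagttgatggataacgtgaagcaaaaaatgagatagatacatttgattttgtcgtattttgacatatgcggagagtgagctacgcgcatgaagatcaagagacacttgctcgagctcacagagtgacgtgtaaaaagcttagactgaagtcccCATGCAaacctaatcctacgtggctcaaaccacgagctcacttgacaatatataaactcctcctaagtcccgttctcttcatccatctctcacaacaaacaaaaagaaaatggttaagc

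CATGCA or its complement was present in 9 of the 16 seed promoters (56.2%), in 20 of the 103 promoters of the other genes (19.4%) and in 9.37% of the promoters of 26868 genes. CACGTG was present in 10 of the 16 (62.5%), in 6 of the 103 (5.83%) and in 7.78% of all. Both were present in 5 of the 16 (31.2%), 3 of the 103 (2.91%) and 0.837% of all. A match of letters in this window is a description of the sequence and not evidence of binding.

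PER1 (AT1G48130), a peroxiredoxin made in the embryo and aleurone, had the highest mean of the group. It gave 0, 1 and 0 reads in WT, 6, 37 and 62 in h2a.w-1 and 0, 0 and 2 in h2a.w-2, so all h2a.w-1 libraries were above the rest but differed widely among themselves. OLEO2 (AT5G40420), an oleosin that coats oil bodies, had 5, 17 and 32 reads in h2a.w-1 and a single read over the 6 other libraries. TIP3;1 (AT1G73190), an aquaporin of the protein storage vacuole, had 2, 9 and 34 reads in h2a.w-1, with 79.0% of its summed normalized count in library C. CRU3 (AT4G28520), a 12S seed storage protein, had 1, 21 and 19. The pattern held across the group: library A of h2a.w-1 was the lowest of the 3, or tied for it, for all 16 genes and library C the highest for 14.

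The rest of the group had fewer reads, again with library A the lowest. The cupins AT2G28490 and AT4G36700, of the storage protein fold, had 1, 4 and 28 reads and 1, 10 and 11 in h2a.w-1. The oleosins AT2G25890 and OLEO1 had 3, 9 and 16 and 1, 9 and 7. GEA6, a late embryogenesis abundant protein, had 1, 10 and 10 reads in h2a.w-1 and 4, 4 and 1 in h2a.w-2, the highest h2a.w-2 mean of the group at 2.91. AT3G17520, of the same broad class, had 1, 4 and 11 reads and AT4G21020 had 0, 1 and 9. ABI3 (AT3G24650), the B3 factor of seed maturation, had 1, 0 and 0 reads in WT, 1, 4 and 10 in h2a.w-1 and 0, 0 and 3 in h2a.w-2. M17, annotated as late embryogenesis abundant, had 8 reads in library C of h2a.w-1 and none in A or B, and 3 in library C of h2a.w-2.

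Summed over the 16 genes on the scale of all 9 libraries, the normalized count was 3.32, 4.26 and 0 in WT, 22.3, 143 and 313 in h2a.w-1, and 7.17, 8.57 and 18.6 in h2a.w-2. Library A of h2a.w-1 thus lay close to the highest h2a.w-2 library, and the group rested on libraries B and C: without C, 10 of the 16 still reached 3, and without B and C together, 2 did. Seed markers moved with the same libraries. Over a list of 6 (CRA1, CRU3, SESA1, SESA3, OLEO1 and OLEO2), of which 3 are members, the summed level was 1.66, 2.56 and 0 in WT, 22.3, 222 and 341 in h2a.w-1, and 3.58, 1.90 and 8.58 in h2a.w-2. CRA1, a 12S storage protein outside the WT limit, made most of it with 19, 186 and 238 reads in h2a.w-1, and its log2 fold change of 5.91 ± 2.99 (SE) did not pass (limma voom, adjusted p = 0.210). The 2S albumin genes SESA1 and SESA3 had at most 2 reads in any library. In bulk RNA, fewer cells of a type and less RNA per cell cannot be told apart, and the part that the seed signal of libraries B and C had in the other levels was not tested.

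**Figure D3:**
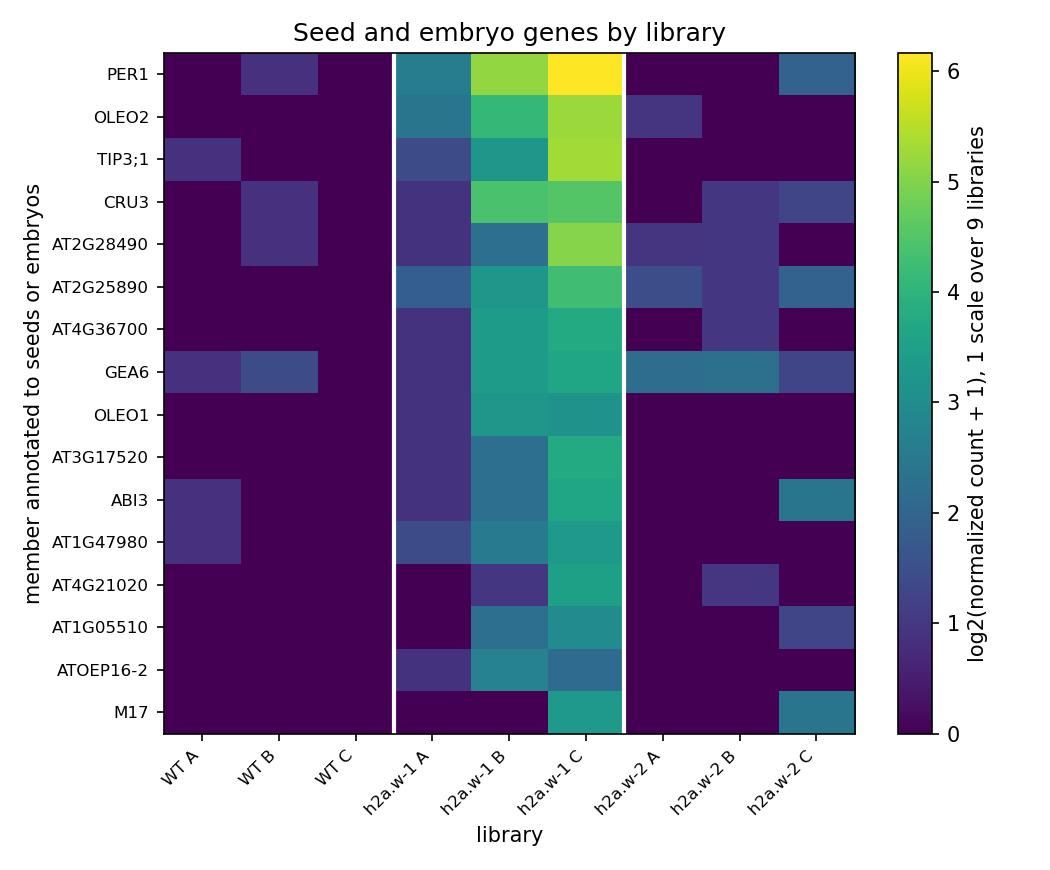
Each row is 1 of the 16 seed or embryo genes, ordered by mean in h2a.w-1, and each column 1 library; the colour is log2(normalized count + 1) on 1 scale over the 9 libraries. The h2a.w-1 columns are bright in libraries B and C and darker in A, and most WT and h2a.w-2 cells are at or near 0, with GEA6, ABI3 and M17 among the exceptions in h2a.w-2.

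Outside the seed group, library A was the lowest in h2a.w-1, ties included, for 43 of the other 78 genes. Some of these followed the seed libraries all the same. AT5G55410, of the lipid-transfer and 2S albumin superfamily, had 2, 17 and 69 reads in h2a.w-1, and AT3G21380, a mannose-binding lectin, had 5, 30 and 44. Others were even. AT1G27565, an uncharacterized gene (chr1:9574550-9575189), had 1, 0 and 0 reads in WT, 18, 30 and 22 in h2a.w-1 and none in h2a.w-2. Its ratio to the 1 WT read was 72.2, with a counting interval of 12.5 to 2893. Every h2a.w-1 library was thus well above every other library, and its best match, AT1G52905, was transcribed in all genotypes with 34 to 73 reads per library. AT3G54940, a papain-type cysteine protease, had 10, 10 and 18 reads in h2a.w-1 and none in WT. AT5G37970, a methyltransferase family gene, had 7, 6 and 19, and CYP71B10, a cytochrome P450, had 2, 9 and 13.

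Single libraries made a few of the genes. CYP82C4, a cytochrome P450 of the early response to iron deficiency, had 11 reads in library C of h2a.w-1 and none elsewhere. In h2a.w-2, AT1G80165 had 9 reads in library C and none in any other library of the series, and the pseudogene-class locus AT2G06890 had 11 in library A and none in B or C, beside 1, 2 and 0 in WT. A single library held over 2/3 of the summed normalized count for 18 of the 94 genes in h2a.w-1, of which 17 were in library C, and for 4 of the 40 in h2a.w-2.

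Genes of reproductive and organ development were at the low end. FWA (AT4G25530), an imprinted homeodomain factor that delays flowering when active, had 1, 0 and 0 reads in WT, 3, 4 and 4 in h2a.w-1 and 0, 0 and 1 in h2a.w-2. AGL38, or PHERES2, had 1, 0 and 0 reads in WT, 2, 3 and 4 in h2a.w-1 and none in h2a.w-2. UFO, which sets floral meristem identity, had 2, 3 and 5 reads in h2a.w-1 and SYN1, a meiotic cohesin, had 3, 4 and 4, against 3 reads in all in WT for each. The MADS-box gene AT4G36590 had 2, 6 and 4. With JAG, 6 genes were placed in this group, of which 5 reached 3 in h2a.w-1 only, and none had more than 6 reads in an h2a.w-1 library. Pollen markers (VGD1, VGDH1 and PPME1) had at most 1 read in any library. Flower organ identity genes (AP1, AP3, PI, AG and SEP3) summed to 72.5 to 125 in WT, 22.8 to 93.5 in h2a.w-1 and 64.8 to 82.9 in h2a.w-2, with library C of h2a.w-1 the lowest. SEP3 made most of these sums, with a mean of 88.9 in WT and 50.9 in h2a.w-1 (limma voom, adjusted p = 0.269). From WT to h2a.w-1, the low means of the others went the other way: AP1 2.64 to 4.73, AP3 2.13 to 2.89, PI 6.08 to 6.43 and AG 1.16 to 2.07. The part of these genes in the levels of the set was not tested. The green tissue marker RBCS1A was abundant throughout, with means of 21105 in WT and 29539 in h2a.w-1 in the h2a.w-1 table, and 20200 in WT and 18298 in h2a.w-2 in the h2a.w-2 table.

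Among the 5 genes of stress and defence, HSFA6A, a heat stress transcription factor, had 2, 1 and 0 reads in WT, 11, 3 and 10 in h2a.w-1 and 1, 1 and 4 in h2a.w-2. ERF53, a drought-induced AP2/ERF factor, had 3, 6 and 6 in h2a.w-1 and at most 2 elsewhere. The defensin-like gene AT5G44973 had 3, 3 and 5 in h2a.w-1, a single read in WT and none in h2a.w-2. The HSP20-like gene AT1G76770 reached 3 in h2a.w-2 only, with 5, 5 and 1 reads, against 3, 0 and 0 in WT, which overlap.

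A list of 10 genes known to respond to DNA methylation or to Polycomb silencing gives the wider context, and FWA is its only member of the set. The list was not split by the direction of that response, so its counts and median may mix directions. In h2a.w-1, 4 of the 10 had enough reads for the test, 2 rose and none fell (limma voom, adjusted p under 0.05 with a log2 fold change above 1 or below -1), with a median log2 fold change of 0.79 against -0.01 over all features. The share of all features that rose was 1.66%, and 3.19% fell. QQS, an orphan gene silenced by methylation of nearby repeats, had 50, 33 and 24 reads in WT and 87, 161 and 79 in h2a.w-1, a log2 fold change of 1.60 ± 0.36 (SE, limma voom adjusted p = 0.0196). PHE1, an imprinted MADS-box gene and close relative of AGL38, with which it may share reads, had 12, 4 and 3 reads in WT and 25, 23 and 25 in h2a.w-1, a log2 fold change of 2.07 ± 0.44 (SE, adjusted p = 0.0158). IBM1 and ROS1 did not pass. In h2a.w-2, 3 of the 10 were tested and QQS rose, where 0.0255% of all features rose and 0.0153% fell. It had 271, 229 and 150 reads and a log2 fold change of 2.76 ± 0.20 (SE, limma voom adjusted p = 0.00306). ROS1 had 996, 1162 and 736 reads in WT and 556, 530 and 293 in h2a.w-2. Its log2 fold change of -0.93 ± 0.12 (SE) did not pass (limma voom, adjusted p = 0.0674). IBM1, at 0.19, did not pass either. PHE1 was not tested in h2a.w-2, where it had 3, 0 and 0 reads. Without WT library B, no gene of the list passed in either mutant. SDC, known to be silenced by DNA methylation of its promoter repeats, had 1 read in 1 h2a.w-1 library and none elsewhere.

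Of the genes that reached 3 in h2a.w-2 only, 2 adjacent pseudogene-class loci stood highest after AT4G25580. Loci classed as pseudogenes or transcribed pseudogenes made 10 of the 25 (40%), 5 of the 79 that reached 3 in h2a.w-1 only (6.33%), and 3 of the 15 (20%), beside 29.1% of all 4601 genes silent in WT. The difference between the classes was not tested. AT2G15510 and AT2G15520, neighbours on the - strand of chromosome 2 with 107 bases between them (chr2:6766622-6770676 and chr2:6770784-6772235), had no read in WT. AT2G15510 had 0, 3 and 3 reads in h2a.w-1 and 20, 16 and 9 in h2a.w-2. AT2G15520 had 0, 1 and 2 and then 23, 12 and 6. Both were higher in every h2a.w-2 library than in any other library, and their means in h2a.w-2 were at least 5.27-fold and at least 4.66-fold higher than a floor of 3 reads in each WT library.

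Most other genes of this class were near the limit. AT4G25580, annotated as CAP160 protein after a cold-induced protein of spinach, had the highest mean at 22.1, but with 1, 8 and 41 reads it had 87.4% of its summed normalized count in library C. AT1G58390, a disease resistance gene of the CC-NBS-LRR class, had 1, 2 and 0 reads in WT, 4, 1 and 3 in h2a.w-1 and 8, 5 and 4 in h2a.w-2. RLP43, a receptor-like protein, had 1, 8 and 6 reads in h2a.w-2 and 3, 0 and 0 in WT, which overlap. The pseudogene-class locus AT3G32925 had 1, 9 and 5 reads in h2a.w-2 and 2, 1 and 5 in h2a.w-1. RSU1, annotated as a transcribed pseudogene of a ribosomal protein L13 homolog, had 5, 5 and 4, and AT5G33395 had 5, 5 and 3 beside a mean of 2.98 in h2a.w-1, which is just under the limit. AT1G32910, an acyltransferase family gene, had 2, 6 and 5, APD3, a RING protein, had 8, 2 and 3, and AT3G54065 had 0, 5 and 6.

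By position, the genes were spread over all chromosomes, with 31 on chromosome 1, 20 on 2, 25 on 3, 16 on 4 and 27 on 5. Locus numbers follow position for most, but not for the newer non-coding loci: AT1G06883 and AT1G07887 carry low numbers and lie in the middle and right of chromosome 1. Positions were therefore taken from the RefSeq annotation. Loci of the pseudogene class crowd the pericentromeres, and their share among the genes within 250 kb had a median of 2.33% around the 119 genes and 1.78% around 2687 genes taken at even steps along the annotation. It was 50% or more for 8 of the 119 (6.72%) and for 3.61% of the sampled genes. Those 8 were AT2G05665, AT3G32377, AT4G07850 and AT5G32460 (h2a.w-1 only), AT2G06890, AT3G32925 and AT5G33395 (h2a.w-2 only) and AT3G06515 (both). The sample was taken from all genes, of which 4.93% are in the pseudogene class, and not from the 4601 silent in WT, of which 24.8% are. Transcribed pseudogenes are left out of these figures and of the shares within 250 kb. The sample is therefore no measure of what genes silent in WT would show, and no excess is read from these shares. AT4G07850, a pseudogene-class locus at 4.67 Mb of chromosome 4, had 6, 9 and 7 reads in h2a.w-1 and at most 2 in any other library. Few of the genes were close together: AT1G71690 and AT1G71691 overlap, AT2G13547 and NF-YB7 are 7967 bases apart, and FWA and AT4G25580 are 13718 bases apart but reached 3 in different mutants.

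On the right arm of chromosome 1, from 20 Mb on, lay 16 of the genes. There the median log2 ratio of h2a.w-1 to WT over expressed genes in bins of 1 Mb ranged from -0.05 to 0.03, so no bin as a whole stood above WT. CMT3, a chromomethylase gene that the study found duplicated by the rearrangement, lies on this arm. Its mean was 322 in WT and 376 in h2a.w-1. From earlier h2a.w-1 data, the study reported raised read coverage over a part of this chromosome. By quantitative PCR it found more CMT3 transcript in h2a.w-1 with additional copies of the gene. Whether the h2a.w-1 seedlings sequenced here carried that extra dose was not tested. Around the 94 genes of h2a.w-1, the median log2 ratio of the expressed genes within 250 kb ranged from -0.10 to 0.48, with a median of 0.00, and around the 40 of h2a.w-2 from -0.08 to 0.17, with a median of 0.01. The value of 0.48 rests on 3 expressed genes around AT3G32377.

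The nearest genes on either side of all members were tested in each mutant, whether or not the member reached 3 there. The rule did not use these neighbours, and genes that overlap a member were left out. Of 16 such overlapping genes with enough reads, 3 rose in h2a.w-1 (MRD1, HEI10 and AT5G42760) and none fell, and of 17 in h2a.w-2, MRD1 rose (limma voom). In h2a.w-1, 164 of 233 neighbours had enough reads, of which 1 rose (0.610%) and 6 fell (3.66%) by limma voom, against 1.66% and 3.19% of all features. Their median log2 fold change was 0.04, against -0.01 over all features. In h2a.w-2, none of 169 passed by limma voom or by limma with trend, where 0.0255% of all features rose and 0.0153% fell. At an unadjusted p under 0.05 were 33 of the 169 (19.5%), against 11.6% of all features, and the median was 0.04 against 0.00. In h2a.w-1, 58 of the 164 (35.4%) were under that p by limma voom, against 33.1% of all features. The neighbour that rose in h2a.w-1 was AT5G44980, 1940 bases from the defensin-like gene AT5G44973, with a log2 fold change of 1.74 ± 0.42 (SE, adjusted p = 0.0261). In h2a.w-2 it was 1.66 ± 0.39 (SE) and did not pass (limma voom, adjusted p = 0.277). Those that fell were XTH17 next to AGL38, AT2G27402 and AT2G27430 on the 2 sides of AT2G27420, PAP17 next to AT3G03535, AT4G25160 next to OLEO1 and ORP4C next to CYP71B10, by 1.15 to 1.52 on the log2 scale. The number called among neighbours fell from 7 to 3 without WT library B, to 4 without WT library C and to 4 without library A of h2a.w-1. Next to the members that reached 3 in h2a.w-1, 131 neighbours were tested there, of which 1 rose and 5 fell. Next to those that reached 3 in h2a.w-2, 55 were tested there and none passed (limma voom).

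At the 3 highest loci, the genes on either side had ratios far smaller than the locus itself. AT3G01340 and AT3G01350, on the 2 sides of AT3G01345, had log2 ratios of -0.16 and -0.27 in h2a.w-1, where AT3G01345 had 8.55 (ratio of means + 1), and CFM2, 3 genes further on, had 0.67. PIN4 and HB17, on the 2 sides of AT2G01422, had 0.07 and -0.60 in h2a.w-2, where AT2G01422 had 9.38. MSL4 and MUM4, beyond the cluster of MRD1, AT1G07887 and HEI10, had -0.33 and 0.05 in h2a.w-1 and -0.75 and -0.02 in h2a.w-2. Of the 119 genes, 21 overlapped another gene of the tables and 19 of these a gene on the other strand, so that the strand setting of the counting bears on them. A pair of this kind was called: AT5G06385, an antisense RNA with 4, 7 and 3 reads in h2a.w-1, and AT5G42760, whose log2 fold change was 1.29 ± 0.24 (SE, limma voom adjusted p = 0.0103) in h2a.w-1 and 0.02 ± 0.54 (SE) in h2a.w-2.

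**Figure D4:**
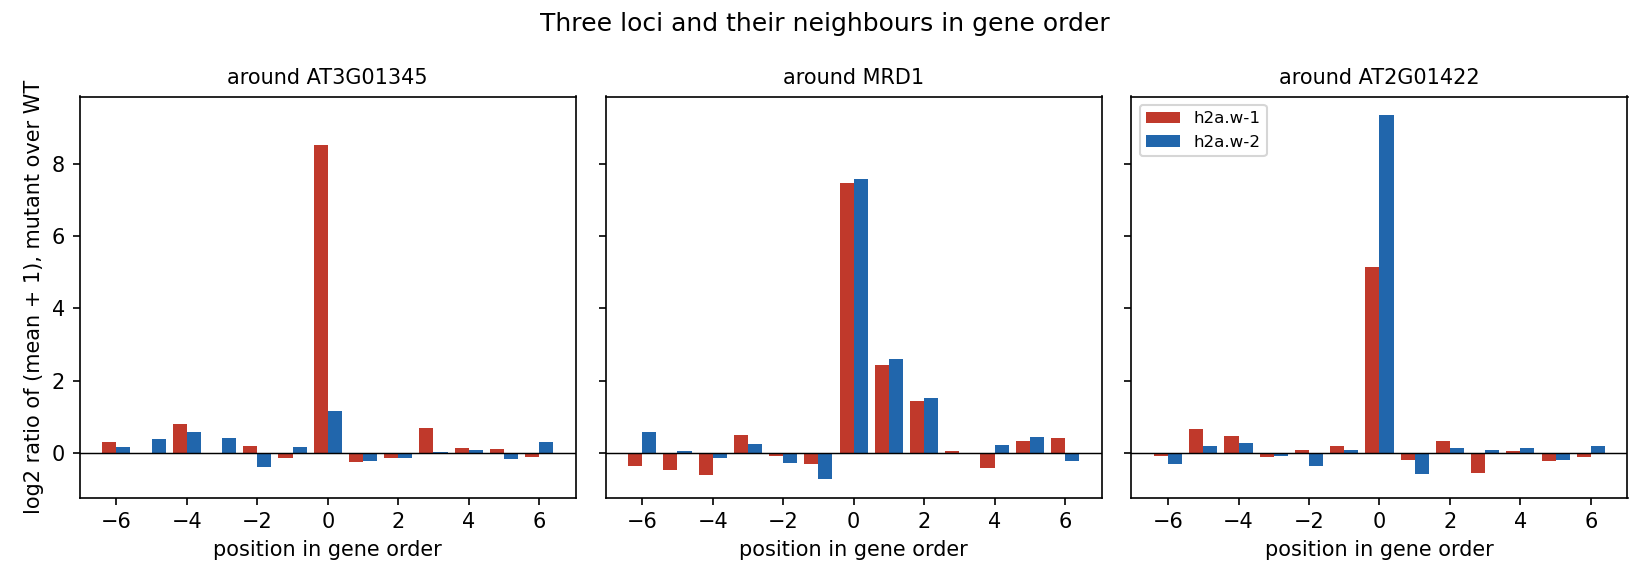
Bars give the log2 ratio of the mean normalized counts + 1, mutant over WT, for the gene named above each panel (position 0) and the 6 genes on either side in order along the chromosome. AT3G01345 and AT2G01422 stand highest at 8.55 in h2a.w-1 and 9.38 in h2a.w-2, and beside MRD1 the overlapping AT1G07887 and HEI10 are raised in both mutants.

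The limits were set within a continuum. Just inside the WT limit were AT3G03535, AT3G61390 and AT3G61898, each with 2, 0 and 1 reads and a mean of 0.995, and just outside were AT1G29180, AT1G43883 and RALFL19, each with 1 read per library and a mean of 1.00. Just inside the mutant limit were AT1G06883 at 3.02 and AT2G05665 at 3.05 in h2a.w-1 and AT3G03535 at 3.03 in h2a.w-2. Just outside were AT4G11642 at 2.95 and AT1G15610 at 2.95 in h2a.w-2 and AT2G03850 at 2.95 in h2a.w-1.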

How the data were processed

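The RNA-seq libraries were used, 3 per genotype, and the other assays of the series were not analysed here. Per the labels and the methods, the authors trimmed reads with Trim Galore 0.5.0, aligned them to TAIR10 with STAR 2.7.0c, dropped multi-mapping reads, removed duplicates with Picard, counted on Araport11 with HTSeq and compared genotypes with DESeq2. The strand setting of the counting is not given in the sources used here. The deposited mean normalized counts are a signal: read counts over size factors, set separately in each table and averaged over 3 libraries. The deposited log2 fold changes, the standard error and Wald statistic (a score), and the p-values hold the authors' own comparisons and were not used.

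Whole reads per library were recovered from the means, as the only combination of whole numbers that gives each mean, for 99.6% of features; the 129 others are abundant, and the recovered reads hold 84.9% to 86.6% of the summed means. On simulated means, 2000 of 2000 came out right. Size factors over all 9 libraries (median ratio) served comparisons between mutants. Features with a mean of at least 10 were fitted with limma 3.58.1 (voom; R 4.3.3), 3 against 3 libraries, and called at an adjusted p under 0.05 with a log2 fold change above 1 or below -1. On simulated data the fit called 194 of 194 genes changed 8-fold in h2a.w-1 and 9 of the unchanged. The simulated counts were drawn with 1 fixed spread setting for all genes. Recovery of smaller changes, such as a log2 fold change near 1, or of changes in genes that vary more between libraries, was not tested. In the h2a.w-2 fit, HTA12 did not pass at a log2 fold change of -1.14 ± 0.46 (SE, limma voom adjusted p = 0.419). HTA6 and HTA7 passed in that fit. A gene that did not pass in h2a.w-2 is thus not shown to be unchanged. Both comparisons share the WT libraries. Positions, symbols, gene classes and promoters came from RefSeq TAIR10.1, matched by locus identifier; 26868 genes had a promoter. The sequence of 1 further promoter is not reported here.

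The members, lists and limits were chosen with earlier results of these data known. Genes named are MRD1 and AT3G01345, all that reached 3 in both mutants, the 12 highest of each other class, those with reads in 1 library, adjacent genes, the 3 nearest each limit, called neighbours and list genes, and the 5 most like MRD1; the role groups, and examples beyond these, were chosen after their values were seen. Alternatives were other limits, scalings, filters and fits, and leaving out each library.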

Additional observations from a re-analysis of the deposited data

How the results depend on the processing

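Depth limits most of these levels, since a mean near 3 is a handful of reads, and the counts moved with the limits. The set of 119 (79 in h2a.w-1 only, 25 in h2a.w-2 only and 15 in both) became 67 (47, 11 and 9) with a WT limit of 0.5, 290 (152, 87 and 51) with a WT limit of 2, 249 (131, 75 and 43) with a mutant limit of 2, 48 (32, 10 and 6) with 5 and 19 (13, 4 and 2) with 10. The scalings by median ratio over 9 libraries or by total reads kept each of these counts within 1.5 times. Leaving out 1 library gave 100 to 165 in all, 60 to 95, 21 to 44 and 15 to 29. The counts of genes silent in a mutant, 70 and 40, became 28 and 13 with limits of 0.5 and 3, 22 and 15 with 1 and 5, and ranged from 77 to 137 and from 32 to 92 without 1 library.

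The fit called 952 features in h2a.w-1 (638 to 1158 without 1 library) and 8 in h2a.w-2 (3 to 10), where no minimum gave 33 and all 9 libraries in 1 fit gave 38. Neighbours called were 7 in h2a.w-1 (3 to 7) and 0 in h2a.w-2 (0 to 0, and 1 with all 9 libraries in 1 fit). List genes called were 2 (0 to 2) and 1 (0 to 1). Windows of 100 and 500 kb moved the local ratio by less than its spread. Alternatives chosen after seeing the data were the counts silent in WT beside those silent in a mutant without 1 library, and those for the 16 seed genes, which became 10 to 16 without 1 library of h2a.w-1 and 2 without libraries B and C. In all, 120 of 166 alternatives kept the call or stayed within 1.5 times the count or the spread, and 46 did not. The cause of the moves was not tested. No paired analysis was possible because the columns are group means that carry no replicate numbers.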
